A study of Mus musculus with 2 samples.

Results

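The genes described here are the cadherins and protocadherins of the early mouse embryo. Members were all probes whose only annotated symbol was Cdh followed by a number, leaving out the endothelial Cdh5, or began with Pcdh. This gave 66 probes for 54 genes, of 18069 genes with a probe of their own on the array. They comprised 14 classical cadherins (5 of type I and 9 of type II), 5 other Cdh genes, 23 clustered protocadherins (Pcdha12 and 22 Pcdhb genes) and 12 protocadherins outside the clusters. Total RNA of the embryo proper was hybridised to 1-colour CodeLink oligonucleotide arrays, 1 array for each of 2 pools of litter-matched E8.5 (embryonic day 8.5) embryos. The control pool held 42 wild-type embryos, and the other held 45 mDom-/- embryos, homozygous for a mutation of mDom (p400/mDomino, now Ep400), the ATPase of the TIP60/p400 chromatin-remodelling complex. The labels used here give no strain, sex, allele design or further treatment.

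Cadherins are calcium-dependent adhesion proteins that join cells through their extracellular repeats. The tails of classical cadherins bind beta-catenin and p120-catenin and, through alpha-catenin, the actin cytoskeleton, and the choice of classical cadherin helps tissues of the embryo to separate, as when neural tissue and mesoderm exchange E-cadherin for N-cadherin. Clustered protocadherins are switched on from alternative promoters in single neurons and give them surface identities, while protocadherins outside the clusters have weaker adhesion and roles in cell movement and in the nervous system.

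For 20 of the 54 genes the RefSeq table of GRCm38.p6 held 300-base windows around a transcription start (250 bases before it, 50 after), 23 windows in all. The windows of 4 members described below are printed because these include the member with the largest difference between the pools (Cdh23), the member whose 2 probes gave a like ratio on bright spots (Pcdh19), and the classical cadherins with the highest ratios (Cdh15 and Cdh22). Capitals mark the dinucleotide CG, which reads the same on both strands, and each window is written 5′ to 3′ on the gene's strand.
Cdh23, chr10:60696441-60696740, minus strand: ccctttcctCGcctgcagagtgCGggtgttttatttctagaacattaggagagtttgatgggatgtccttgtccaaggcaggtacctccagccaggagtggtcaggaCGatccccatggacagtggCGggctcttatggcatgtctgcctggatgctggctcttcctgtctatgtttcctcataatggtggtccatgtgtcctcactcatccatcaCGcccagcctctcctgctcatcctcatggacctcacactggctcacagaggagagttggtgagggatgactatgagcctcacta
Pcdh19, chrX:133688944-133689243, minus strand: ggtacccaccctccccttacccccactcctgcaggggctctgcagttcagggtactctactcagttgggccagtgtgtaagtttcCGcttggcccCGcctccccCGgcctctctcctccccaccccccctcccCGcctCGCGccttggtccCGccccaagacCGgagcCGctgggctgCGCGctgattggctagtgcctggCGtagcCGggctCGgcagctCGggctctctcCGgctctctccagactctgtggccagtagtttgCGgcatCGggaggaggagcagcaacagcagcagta
Cdh15, chr8:122848124-122848423, plus strand: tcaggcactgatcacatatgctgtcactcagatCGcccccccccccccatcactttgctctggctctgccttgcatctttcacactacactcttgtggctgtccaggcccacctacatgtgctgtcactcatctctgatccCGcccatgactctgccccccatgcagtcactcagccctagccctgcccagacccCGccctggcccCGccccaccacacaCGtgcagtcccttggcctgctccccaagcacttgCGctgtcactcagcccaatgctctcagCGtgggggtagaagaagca
Cdh22, chr2:165234688-165234987, minus strand: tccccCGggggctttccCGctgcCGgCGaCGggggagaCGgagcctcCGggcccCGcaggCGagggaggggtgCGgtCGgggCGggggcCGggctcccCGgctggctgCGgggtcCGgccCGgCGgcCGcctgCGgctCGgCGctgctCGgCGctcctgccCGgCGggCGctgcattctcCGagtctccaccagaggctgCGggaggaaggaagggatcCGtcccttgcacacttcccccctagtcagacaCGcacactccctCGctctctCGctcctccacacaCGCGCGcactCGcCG
The dinucleotide occurred 5 times in the Cdh23 window, 7 times in that of Cdh15, 18 times in that of Pcdh19 and 38 times in that of Cdh22. Of all 32851 RefSeq windows, 94.6% held it at least once, with a median of 7 per window. The median over the 23 member windows was 14. These counts describe the windows and were not related to the array values.

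Intensities are given as multiples of the array median, so 1 is the level of the median probe. Values at or under a floor of 0.541, the 40th percentile, were not told apart from dim spots. Genes above the floor on at least 1 array were compared. For those above it on only 1, the difference is a lower limit on its size (a bound). Probes differ in how strongly they bind, so levels of different genes are not set against each other. Each pool had a single array, so no difference has a replicate error or a test, and this limits the precision of every value. As a yardstick, the SD of a log2 ratio between 2 probes of the same gene was 0.25 over 1302 genes. It holds the error of single probes and spots. Error that the probes of a gene share on an array cancels out of it, and it holds no spread between pools. In whole embryos, fewer cells of a type and less RNA per cell cannot be told apart. The disrupted gene Ep400 could not check the labels, since both of its probes were below the floor on both arrays.

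Most cadherin and protocadherin genes with signal differed by less than 2-fold between the pools, as did most of all compared genes. Of the 54 genes, 29 were compared, 22 of them on both arrays, and 25 were below the floor on both. None of the 29 was at least 2-fold higher in the mDom-/- pool, against 0.845% of all 13137 compared genes. Cdh23 and Pcdhb12 were at least 2-fold lower, 2 of 29 against 0.929% of all compared genes (1.77% in either direction). Both had only 1 probe, and both were bounds. No member measured on both arrays was 2-fold apart in either direction, and 1.14% of all genes measured on both arrays were. With shares this low over all genes, neither absence sets the members apart from other genes. The median log2 ratio (mDom-/- minus wild-type) was 0.02 over the 29 members and -0.004 over all compared genes. Among members measured on both arrays, 13 read higher and 9 lower in the mDom-/- pool, and 49.3% of all such genes read higher.

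**Figure D1:**
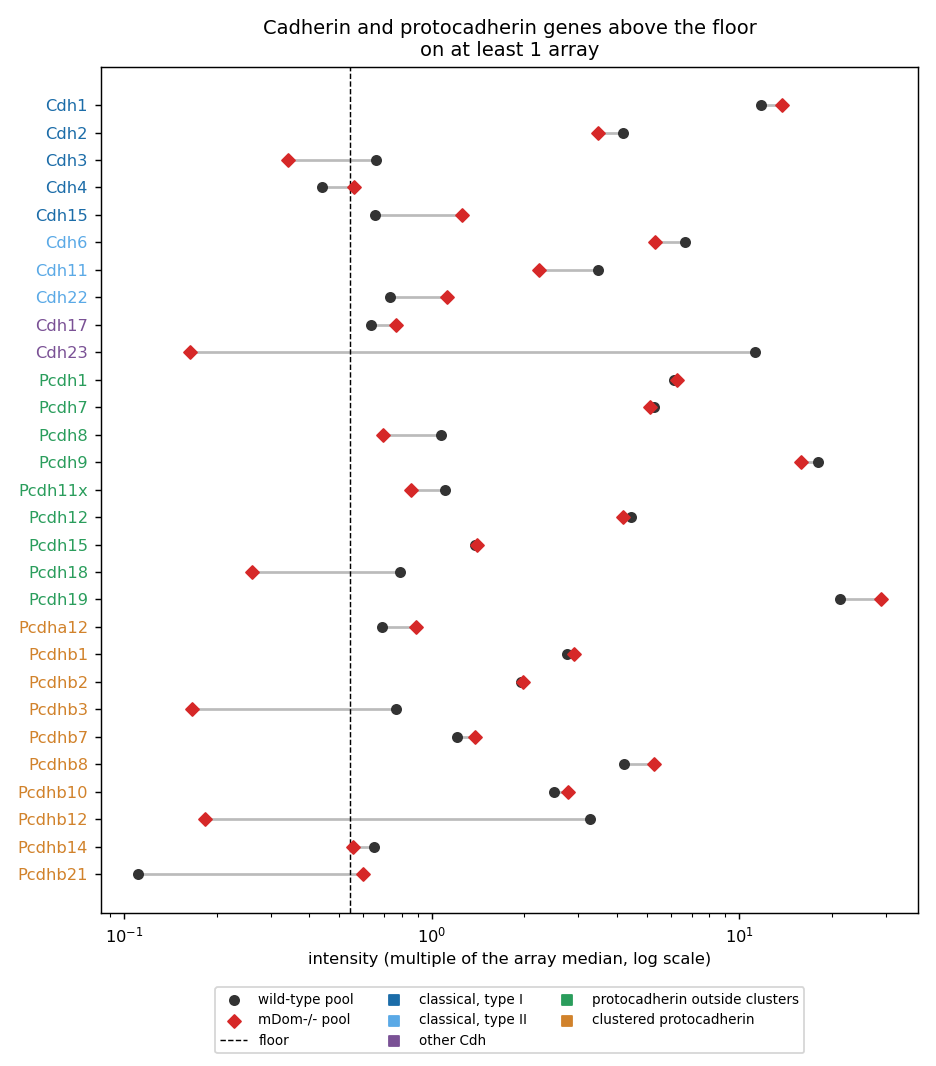
Intensity of each compared cadherin and protocadherin gene in the wild-type pool (circles) and the mDom-/- pool (diamonds), 1 array each, as a multiple of the array median on a log axis. The dashed line is the floor of 0.541, and gene names are coloured by class. The widest gaps are those of Cdh23 and Pcdhb12, whose mDom-/- values lie below the floor.

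The type I classical cadherins went both ways. Cdh1, E-cadherin of epithelia, read 11.8 in the wild-type and 13.8 in the mDom-/- pool, a log2 ratio of 0.22. Cdh2, N-cadherin of the neural tube, somites and heart, read 4.20 and 3.47, a log2 ratio of -0.28. Each difference was about as large as the SD between probes of a gene. The ratio of Cdh1 exceeded that of Cdh2 by 0.50 on the log2 scale, 1.42 times the SD of 0.35 that the probe pairs give for such a difference. It exceeded that of Cdh11, a type II cadherin, by 0.87, 2.46 times that SD. Cdh11 had the lowest log2 ratio, -0.64, of the 22 members measured on both arrays, so that pair is an extreme one. The SD holds no spread between genes or between pools, so neither multiple is a test. The signs of Cdh1 and Cdh2 held under every scaling alternative (0.22 to 0.25 for Cdh1 and -0.28 to -0.23 for Cdh2). The deposited arrays already had like medians, so scaling moved these ratios little and says nothing of replicate error.

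Cdh15, M-cadherin of skeletal muscle, read 0.653 and 1.25, 1.92-fold higher in the mDom-/- pool and short of the 2-fold rule. Both values were close to the floor. Of the 22 members measured on both arrays, it alone lay outside the middle 95% of log2 ratios for genes of like brightness. That range ran from -0.88 to 0.79 in the dimmest 25% of genes. By its definition the range leaves out a small share of all genes, and 1 of 22 members is close to that share. The wild-type and mDom-/- values of Cdh15 were both below the 60th percentile floor, where it was not compared. Cdh3, P-cadherin of surface ectoderm and extraembryonic tissue, had a pair of probes that read 0.658 and 0.613 in the wild-type and 0.340 and 0.266 in the mDom-/- pool. Both probes crossed the floor in the same direction, and the gene was at least 1.22-fold lower. Cdh4, R-cadherin of the retina and brain, read 0.438 and 0.559, which is at the floor.

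Of the type II classical cadherins 3 of 9 were compared. Cdh11, a cadherin of mesenchyme, read 3.49 in the wild-type pool and 2.23 in the mDom-/- pool and was 1.56-fold lower. This lay within the middle 95% of genes of like brightness, -0.68 to 0.65. Cdh6, K-cadherin, found in the kidney and the neural crest, read 6.66 and 5.31 on its first probe and 0.826 and 0.739 on its second, log2 ratios of -0.33 and -0.16. Its 2 probes had the same sign. Cdh22, a brain cadherin, read 0.730 and 1.12, 1.54-fold higher, from spots near the floor. Cdh7, Cdh8, Cdh9, Cdh10, Cdh18 and Cdh20, better known from later nervous tissue, were below the floor on both arrays, with readings from -0.06 to 0.374 in the wild-type and from -0.01 to 0.471 in the mDom-/- pool. Cdh11 and Cdh22 were the type II genes past 1.5-fold, a size that 4.35% of all compared genes reached downwards and 4.09% upwards. Over the 8 compared classical cadherins, 4 read higher and 4 lower, and their median log2 ratio was -0.12.

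Tissue markers were read beside these genes, from lists fixed with earlier results of these data known. Of 9 compared epithelial and surface ectoderm markers, 7 read higher and 2 lower in the mDom-/- pool, with a median log2 ratio of 0.23, and their summed level was 92.5 in the wild-type and 111.7 in the mDom-/- pool. Most of the rise in the sum came from the single probe of the bright Cldn7, which read 31.3 and 46.3. Among the markers Cldn7 and Rab25 had 0.56 and 0.72, Epcam -0.15 and Trp63, of surface ectoderm and a bound, -1.29. Neural tube markers read higher for 2 and lower for 7 of 9, with a median of -0.13 and summed levels of 68.5 and 58.0. Sox2, Pax7 and Olig2 were below the floor on both arrays. Neural crest markers read lower for 7 of 8, with a median of -0.37 and summed levels of 439.7 and 421.9, or 44.7 and 30.6 without the bright Crabp1. The paraxial mesoderm and somite list, relevant to Cdh2, Cdh11 and Pcdh8, had a median of -0.002 over 11 genes and summed levels of 115.0 and 116.5. Markers of heart muscle, which also holds N-cadherin, read lower for 7 of 9 genes, with a median of -0.48, and 4 of the 9 were at least 2-fold lower (Myl2, Myh7, Tnni3 and Ttn). Their sums were 673.1 and 604.0, or 155.1 and 112.5 without the bright Myl7 and Actc1. Heart genes short of 2-fold had log2 ratios of -0.48 (Actc1), -0.37 (Tnni1), -0.06 (Tnnt2), 0.04 (Nkx2-5) and 0.08 (Myl7). At least 2-fold lower were also 2 neural crest markers (Sox10 and Tfap2a), 1 neural tube marker (Hes5) and the epithelial marker Trp63. Of all compared genes, 0.929% were at least 2-fold lower. With the 60th percentile floor Myh7 had -0.90 and Hes5 -0.82, and Tfap2a and Trp63 were not compared. Myl2, Tnni3, Ttn and Sox10 kept their values there. The part of these tissues in the values of Cdh1, Cdh2, Cdh6, Cdh11 and Pcdh8 was not tested. The yolk sac and visceral endoderm list had a median of -0.16 over 9 genes, 3 higher and 6 lower. Its sums were 557.9 and 631.9, and the bright Ttr alone (166.6 and 251.2) differed by more than the sums did. The trophoblast and decidua list had a median of 0.15 over 3 genes and sums of 39.3 and 37.5. Of the markers not compared, Marveld3 (epithelium), Ripply2 (somites), Myh6 and Actn2 (heart), Ngfr (neural crest), Amn (visceral endoderm) and Tpbpa (trophoblast) were below the floor on both arrays.

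Of the other Cdh genes, Cdh23 stood apart. It encodes a long cadherin that forms, with protocadherin 15, the tip links of inner ear hair cells. Its single probe read 11.3 in the wild-type and 0.164 in the mDom-/- pool, at least 20.8-fold lower. The size of the bound follows the floor: the log2 ratio was -4.38 at the chosen floor, -2.67 at the 60th percentile floor and -5.55 at the 25th, and it was lower under every alternative that compared it. Its partner Pcdh15 read 1.38 and 1.40, a log2 ratio of 0.02, on one probe, and the other probe was below the floor on both arrays. Of the other tip link and hair bundle genes 7 were compared. None was 2-fold apart, against 1.77% of all compared genes, so this count sets them apart from no other genes. Myo7a, a motor of the hair bundle, had the lowest log2 ratio, -0.75, and the scaffold gene Ush1g the highest, 0.45, a bound. Whrn, another scaffold gene, had 0.16. No second probe of Cdh23 was on the array, so its value has no internal repeat. Cdh17, liver-intestine cadherin, read 0.634 and 0.768, near the floor. Cdh13, which has a lipid anchor in place of a tail, Cdh16 and Cdh26 were below the floor on both arrays.

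**Figure D2:**
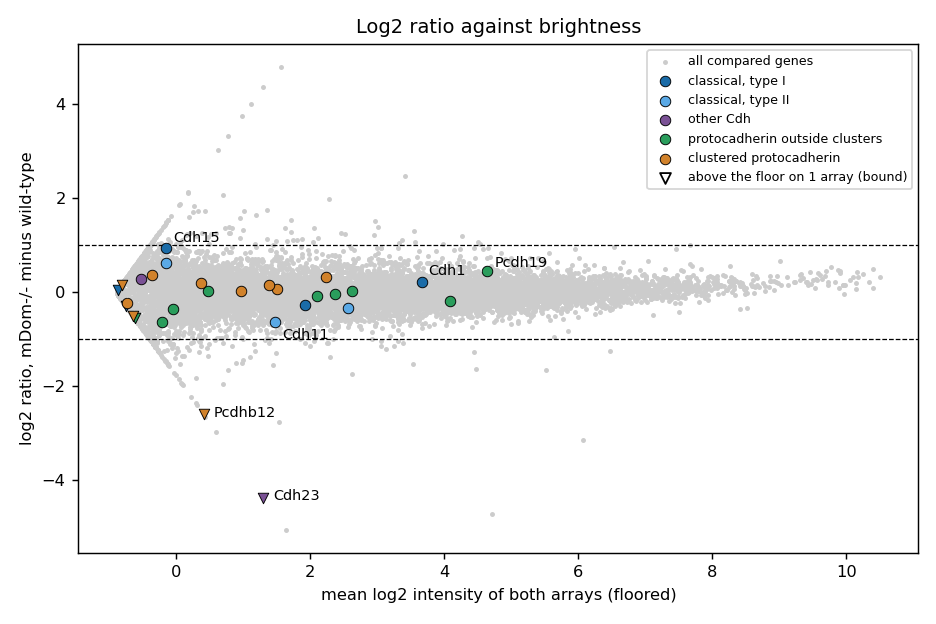
Log2 ratio (mDom-/- minus wild-type) against mean log2 intensity for all 13137 compared genes (grey) and the cadherin and protocadherin genes by class (coloured), with dashed lines at 2-fold. Triangles are members above the floor on 1 array only. Cdh23 and Pcdhb12 lie below the lower line, and every other member lies between the lines.

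The protocadherins outside the clusters were mostly close between pools. Of 12 genes 9 were compared, 3 read higher and 6 lower, and the median log2 ratio was -0.08. Pcdh19, a delta protocadherin of the developing brain, read 21.3 in the wild-type and 29.0 in the mDom-/- pool on its first probe, and 11.6 and 15.5 on its second. The log2 ratios were 0.45 and 0.42, and they differed by 0.02, less than the SD between probes of a gene. The gene was 1.36-fold higher and lay within the middle 95% for the brightest 25% of genes, which ran from -0.40 to 0.48. It lies on chromosome X. For Xist, the RNA that coats the inactive X, the log2 ratio was -0.41, and for Eif2s3y and Kdm5d, on chromosome Y, 0.25 and 0.06. The part of the pools' sex make-up in the Pcdh19 value was not tested.

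Pcdh1, a delta protocadherin of epithelia and nervous tissue, read 6.14 and 6.25 on one probe and 3.52 and 3.46 on the other, log2 ratios of 0.03 and -0.03. Pcdh7 read 5.28 and 5.13, a log2 ratio of -0.04. Pcdh9, of the nervous system, read 18.1 and 15.9 on one probe, 1.14-fold lower, while its other 2 probes were below the floor on both arrays. Pcdh12, a protocadherin of endothelium, read 4.44 and 4.20, a log2 ratio of -0.08, and its second probe was below the floor. Blood and endothelial markers were read beside it, and of 9 genes of that list on the array 8 were compared. All 8 were lower, with summed levels of 388.7 and 67.2, most of it from the globins Hba-x (199.9 and 22.4) and Hbb-y (133.8 and 5.12). Without these 2 genes the sums were 55.0 and 39.6. The endothelial genes among them had log2 ratios of -0.18 (Tek) and -0.29 (Kdr), -0.98 (Cldn5, a bound), -1.09 (Emcn) and -1.08 (Pecam1, a bound). The log2 ratio of Pcdh12 was thus nearer to 0 than that of each of these 5 genes. Its gaps to Tek and Kdr were smaller than the SD between probes of a gene, so it is not told apart from them.

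Pcdh8, paraxial protocadherin of the presomitic mesoderm, read 1.07 in the wild-type pool and 0.694 in the mDom-/- pool and was 1.55-fold lower. Pcdh18 read 0.787 and 0.261 and was at least 1.46-fold lower, a bound from a spot just above the floor. Pcdh11x, also on chromosome X, had probes that disagreed: one read 1.10 and 0.859, a log2 ratio of -0.36, and the other 0.434 and 0.795, a log2 ratio of 0.56 and a bound. Over the mean of its probes its log2 ratio was 0.10, so its direction is not settled. Pcdh10, Pcdh17 and Pcdh20 were below the floor on both arrays.

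**Figure D3:**
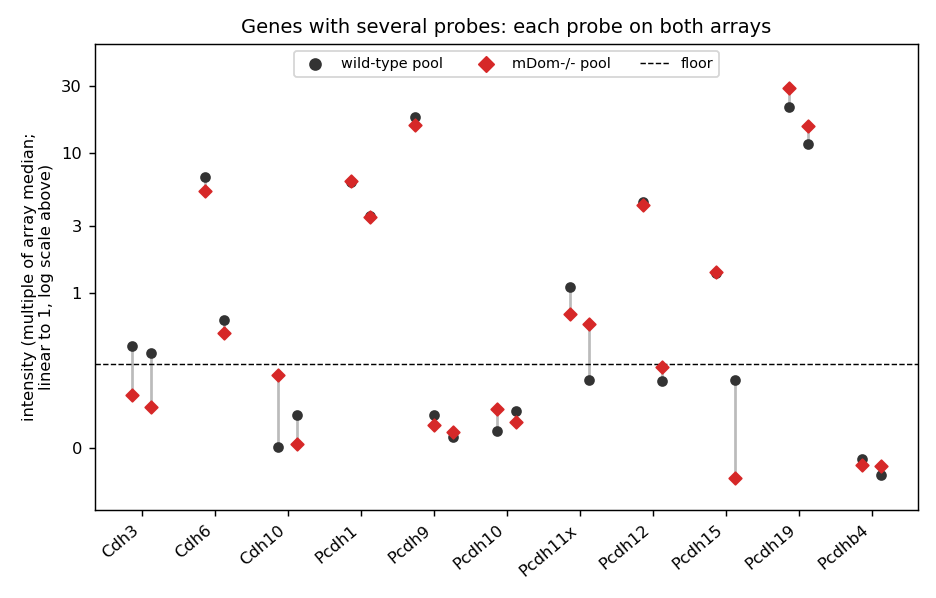
Each probe of the 11 members with several probes in the wild-type pool (circles) and the mDom-/- pool (diamonds), as a multiple of the array median on an axis that is linear to 1 and logarithmic above. Both probes of Pcdh19 read higher and both of Cdh3 and of Cdh6 lower in the mDom-/- pool, while those of Pcdh11x went opposite ways.

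In the clusters, 10 of 23 genes were compared and 13 were below the floor on both arrays, with readings of at most 0.538 in the wild-type and 0.431 in the mDom-/- pool. Of the 7 measured on both arrays, 6 read higher and 1 lower, with log2 ratios from -0.22 to 0.37. Pcdhb8 read 4.21 in the wild-type pool and 5.28 in the mDom-/- pool and was 1.25-fold higher. Pcdhb1 read 2.76 and 2.91, Pcdhb10 2.49 and 2.78, Pcdhb2 1.95 and 1.98 and Pcdhb7 1.21 and 1.38, log2 ratios of 0.08, 0.16, 0.03 and 0.19. Pcdha12, the only alpha cluster gene with a probe of its own, read 0.687 and 0.888, a log2 ratio of 0.37. Apart from those of Pcdhb8 and Pcdha12, the ratios of the higher genes were smaller than the SD between probes of a gene. Pcdhb8 and Pcdha12 lay within the middle 95% of genes of like brightness, and Pcdha12 read close to the floor.

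Pcdhb12 was the only clustered gene at least 2-fold apart at the chosen floor. It read 3.27 in the wild-type and 0.184 in the mDom-/- pool, at least 6.05-fold lower. With the 60th percentile floor the bound shrank to a log2 ratio of -0.89, since its mDom-/- value stayed below that floor. Pcdhb3 read 0.766 and 0.167, at least 1.42-fold lower, Pcdhb14 0.648 and 0.556, and Pcdhb21 0.111 and 0.600, all with a highest value close to the floor. Clustered protocadherin genes are close copies of each other, so how far a probe of one also reads its neighbours is not known here. In gene order along the beta cluster, the compared genes were Pcdhb1 to Pcdhb3, Pcdhb7, Pcdhb8, Pcdhb10, Pcdhb12, Pcdhb14 and Pcdhb21. The genes on either side of Pcdhb12, Pcdhb11 and Pcdhb13, were below the floor on both arrays, and the nearest compared neighbours, Pcdhb10 and Pcdhb14, had log2 ratios of 0.16 and -0.22. The median log2 ratio over the 10 compared clustered genes was 0.11, but -0.22 with the 25th percentile floor, which brings in 7 more genes from dim spots.

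**Figure D4:**
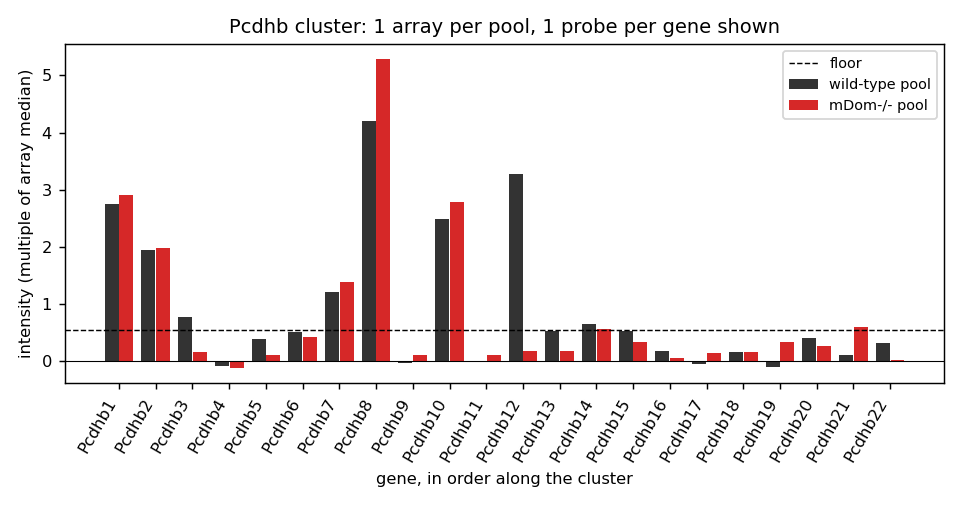
Intensity of the 22 Pcdhb genes in their order along the cluster, wild-type pool in black and mDom-/- pool in red, 1 array each and 1 probe per gene, as a multiple of the array median. Of the genes with a wild-type level over 1, Pcdhb12 alone is below the floor (dashed line, 0.541) in the mDom-/- pool.

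Regulators of the clusters were measured on both arrays for 12 of 12 genes on the array. None was 2-fold apart, which with 1.14% of all such genes apart says nothing particular of the list. Ctcf, whose protein brings promoters and enhancers of the clusters together, read 5.14 and 5.18, a log2 ratio of 0.01. The cohesin gene Smc3 had -0.50 and Smchd1, a repressor that acts on the clusters, -0.45. Dnmt3b, a DNA methyltransferase, read 109.1 and 141.5, a log2 ratio of 0.38. The list's median was -0.02.

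Genes that work with cadherins were read beside them. Of 15 catenins and adaptors 13 were compared and none was 2-fold apart, a count too small to read against the 1.77% of all compared genes. In this list 5 read higher and 8 lower, with a median log2 ratio of -0.18. Ctnnb1 (beta-catenin) read 11.3 and 8.72, Ctnna1 (alpha-catenin) 6.99 and 5.33, and Ctnnd1 (p120-catenin) 3.22 and 2.71, log2 ratios of -0.38, -0.39 and -0.25. Vcl (vinculin) had the lowest log2 ratio of the list, -0.58, and Ctnnd2, delta-catenin of neural tissue, the highest, 0.37. Pkp4, a relative of p120-catenin with a bright spot, read 75.2 and 77.7, a log2 ratio of 0.05 whose sign turned under scaling alternatives (-0.04 to 0.07). Jup (plakoglobin) and Ctnna3 were below the floor on both arrays. The transcription factors that set the balance of E- and N-cadherin had a median of -0.02 over 11 compared genes, from -0.42 (Twist2) to 0.23 (Ovol1). Snai1, a repressor of Cdh1, had -0.05, Snai2 -0.24, Zeb1 0.08 and Zeb2 -0.10. Twist1, of mesenchyme, read 29.1 and 28.7. Of the proteases that cut cadherins, Adam10 had a log2 ratio of -0.07, Adam17 -0.45 and Psen2, of the gamma-secretase complex, 0.57, and the median over 5 compared genes was -0.16.

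Relatives outside the membership rule, the desmosomal, Fat, Dachsous, Celsr and other cadherin-repeat genes, had 16 of 24 genes compared, 8 higher and 8 lower, a median log2 ratio of -0.003 and none 2-fold apart (1.77% of all compared genes). The extremes were Celsr3, a planar polarity gene of neurons, at 1.65 and 3.20 (1.94-fold higher), and Fat4, which encodes a giant cadherin that binds Dachsous, at 2.53 and 1.35 (1.88-fold lower). Fat1 had -0.20 and Dsg2, a desmosomal cadherin gene that crossed the floor, 0.59. Whether the members differed from these relatives was not tested.

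**Figure D5:**
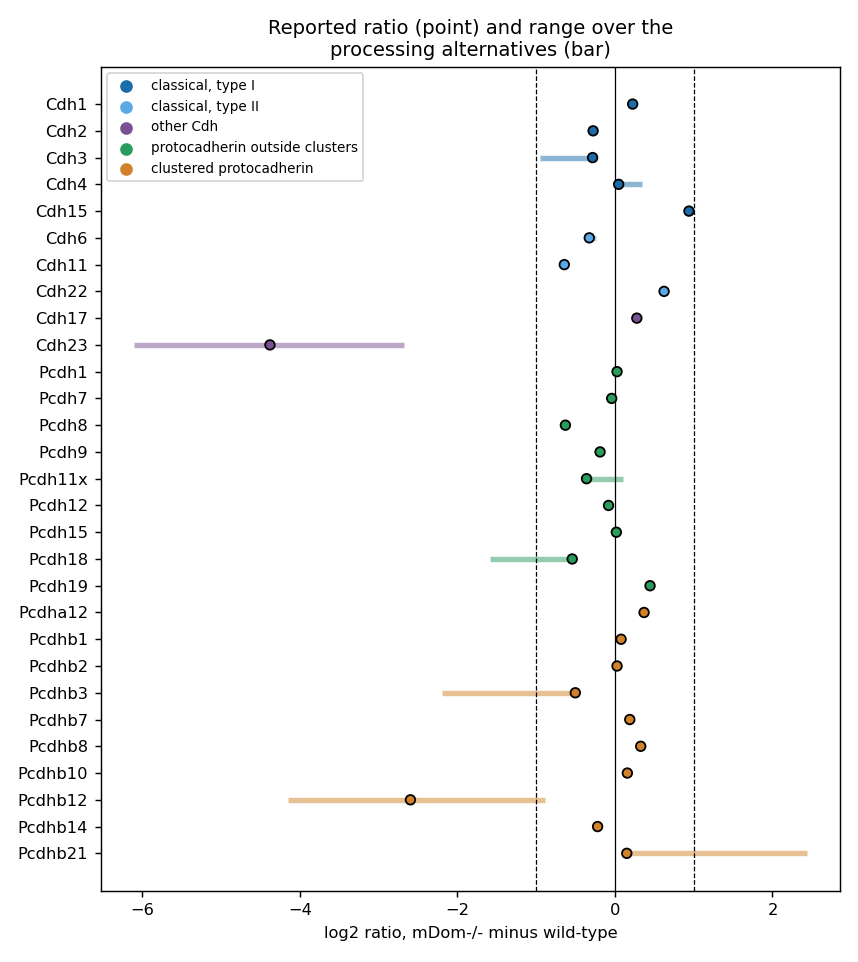
Log2 ratio (mDom-/- minus wild-type) of each compared member as reported (points) and its range over the processing alternatives that compared it (bars), with dashed lines at 2-fold. The bars are long for genes with a value at or below the floor on 1 array, such as Cdh23 (-6.10 to -2.67), and too short to see for most genes measured on both arrays.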

How the data were processed

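Total RNA of the embryo proper was labelled with biotin-UTP and the array images were analysed with the CodeLink System Software, per the labels. The deposited table held linear spot intensities with a median of 1.05 on either array, so the authors had scaled them already. The scaling, the background correction and the software version were each not given in the sources used here, and -9999 was read as no value (105 wild-type and 106 mDom-/- probes; no member probe). Of 36227 probes, 21615 had 1 gene symbol in the platform annotation, 681 several and 13931 none. All 66 member probes had an Entrez identifier in the GRCm38.p6 RefSeq table.

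Each array was divided by its median, raised to the floor and put on the log2 scale. Each gene was represented by its brightest probe (mean of both arrays), and at least 2-fold apart was the size rule. All compared classical cadherins, other Cdh genes and protocadherins outside the clusters were named, and of the clustered genes those 2-fold apart or with extreme or bright signal. Others, namely Pcdhb2, Pcdhb3, Pcdhb7, Pcdhb14 and Pcdhb21 and single genes of the other lists, were named after their values were seen. Members and lists were chosen with earlier results of these data known. The steps were tested on simulated data, with Python 3.11.15, pandas 2.3.3 and statsmodels 0.14.6. The changes planted there were in spots well above the median, so changes in spots near the floor were not covered. The noise added there was smaller than the SD between probes of a gene, so the simulated data were easier than the real data.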

Additional observations from a re-analysis of the deposited data

Results flagged for a closer look

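Probes annotated to several genes were outside the members. The probe shared by all 14 Pcdha genes read 1.19 in the wild-type and 1.33 in the mDom-/- pool, above the floor on both arrays, with a log2 ratio of 0.15. A probe annotated to both Pcdh7 and 4932441J04Rik read 1.12 and 1.60, a log2 ratio of 0.51, while the probe of Pcdh7 alone had -0.04. Both were listed because signal in probes no comparison used was above the wild-type level. With 1 array per pool neither difference was tested.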

How the results depend on the processing

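The 2 member genes at least 2-fold apart depended on the floor. There were 6 (1 higher, 5 lower) with the 25th percentile floor, 1 with the 60th, 15 (5 higher, 10 lower) with no floor and 0 where both arrays had to be above it. The size rule of 1.5-fold gave 6 (2 higher, 4 lower, of 29), with 4.09% of all compared genes higher and 4.35% lower by that size. Over the floor settings the share of all genes past 2-fold moved too, from 1.77% to 6.68%, 0.691%, 14.2% and 1.14%. Against these, the shares of compared members were 6.90%, 14.0% of 43, 6.67% of 15, 33.3% of 45 and 0 of 22. The median of the classical cadherins, -0.12, was -0.30 both with the 60th percentile floor (4 genes) and with no floor (12 genes). The median of the clustered protocadherins, 0.11, was -0.22 both with the 25th percentile floor and with no floor. Rescaling, quantile normalization, loess (span 0.3) and the mean over probes left these counts and medians close to the reported values, as did a 3-fold rule for the count and every alternative for the median of the other protocadherins. Of 240 single-gene values under alternatives, 223 lay within the probe-pair SD of the reported value. Many of the 240 could not move. A gene with 1 probe, above all the floors on both arrays, keeps its value by construction when the floor or the probe rule changes. The 223 are thus no measure of how robust the values are. No member changed sign under a scaling alternative, and Pcdh11x did with the mean over probes. No replicate could be left out with 1 array per group. No paired analysis was possible because each group had 1 array.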
